A study of Mus musculus with 2 samples.

Results

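The 9 genes described here encode receptors that decide where lymphocytes go and how long they stay in a tissue. They are the chemokine receptor genes Ccr7, Cxcr4, Cxcr5, Ccr6 and Ccr9, the retention gene Cd69, and the integrin genes Itgae, Itgb7 and Itgal. They were taken by name, as 9 of the 25815 genes in the count tables, and all 9 had UMIs (unique molecular identifiers, each tagging 1 captured mRNA molecule) in both libraries.

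Lymphocytes enter a lymph node from blood across high endothelial venules, where CCR7 responds to the chemokine CCL21 and the integrin LFA-1 then holds the cell on ICAM molecules. Inside the node CXCR5 directs cells to CXCL13 in B cell follicles, CCR7 keeps T cells in the paracortex, and CXCR4 responds to CXCL12. CD69 binds the sphingosine-1-phosphate receptor S1P1 and draws it off the cell surface, which holds back exit into lymph. CCR9, CCR6 and the integrins that share the beta-7 chain are best known for mucosal tissues.

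The cells came from tumour-draining inguinal lymph nodes of mice, with 13 nodes from wild-type animals (the library labelled WT) and 9 nodes from ATG5LEC-KO animals (the library labelled ATG5 KO), in which the autophagy gene Atg5 is named as knocked out in lymphatic endothelial cells. CD45-positive immune cells and CD31-positive endothelial cells were sorted and pooled, and each genotype gave 1 single-cell library. The driver of the deletion, the tumour and the age of the mice are not given in the sources used here. Both libraries pool cells of male and female mice in unequal shares, read per cell from Xist and Y-linked genes, with male cells at 79.1% of the sexed B cells in WT and 50.4% in ATG5 KO. Only part of the cells had a sex call, 577 male and 152 female of 1332 B cells in WT, and 459 and 451 of 1540 in ATG5 KO. The other cells are in neither sex in the splits below. Cells are not tied to single animals, so no spread between animals can be estimated, there is no test of genotype, and every interval below is a 95% interval for counting error only.

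After quality filters the WT library held 3857 cells with a median of 3509 UMIs, and the ATG5 KO library held 4157 cells with a median of 3344 UMIs. Of the cell barcodes, 14 occurred in both libraries. Classes are clusters of cells named from marker genes, formed without the 9 genes and without 43 other trafficking genes, so "B", "regulatory T" and the like mean cells resembling those types. WT and ATG5 KO gave 1332 and 1540 B cells, 341 and 679 conventional CD4 T cells, 69 and 124 regulatory T cells, 413 and 600 naive CD8 T cells, 67 and 123 memory-like CD8 T cells, and 7 and 24 natural killer (NK) cells. All markers listed for each class had UMIs in both libraries, with Foxp3 at 876 and 938 CPM (counts scaled to a common class total, defined below) in regulatory T cells and Ncr1 at 490 and 615 CPM in NK cells. CPM are the summed UMIs of a gene over the summed UMIs of the class, mitochondrially encoded genes left out, on the usual CPM scale, so they compare classes and libraries for 1 gene and not genes with each other. Values from the 7 WT NK cells rest on 32639 UMIs, where 1 UMI already equals 30.6 CPM.

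Barcodes with 20 to 100 UMIs, which hold mostly free RNA, gave between 18.1 CPM (Itgae) and 185 CPM (Cd69) in WT and between 35.7 CPM (Itgae) and 252 CPM (Cd69) in ATG5 KO. In the annotation Cxcr5 overlaps Bcl9l, Itgae overlaps Haspin and Ccr9 overlaps Slc6a20a, Lztfl1 and Gm17200, mostly on the opposite strand. Whether counting used the strand is not given in the sources used here, so reads of these pairs cannot be told apart.

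**Figure D1:**
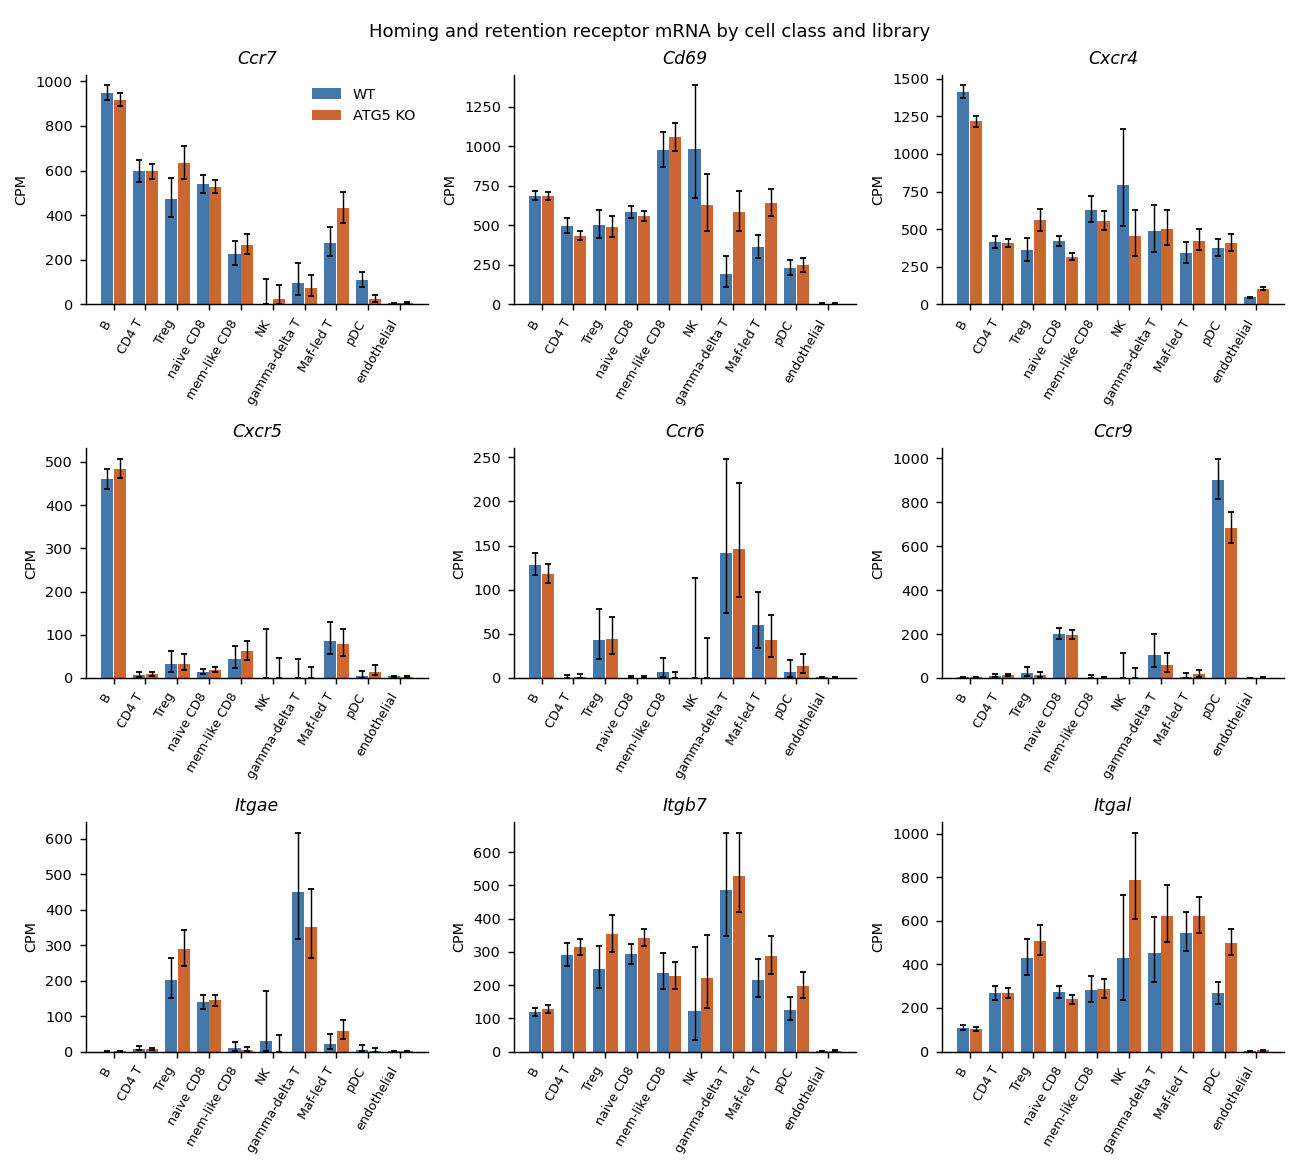
Level of each of the 9 genes (CPM, vertical axes starting at 0, a different scale in each panel) in 10 cell classes, WT in blue and ATG5 KO in orange, with exact 95% Poisson intervals for counting error. Cxcr5 stands high in B cells, Ccr6 in B and gamma-delta T cells, Ccr9 in naive CD8 T cells and plasmacytoid dendritic cells (pDC), and Itgae in regulatory T (Treg), naive CD8 and gamma-delta T cells.

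The class with the highest level was the same in both libraries for 6 of the 9 genes. It was the B cells for Ccr7, Cxcr4, Cxcr5 and Ccr6, the naive CD8 T cells for Ccr9 and the regulatory T cells for Itgae. For Cd69, Itgb7 and Itgal the top class differed, and in each of these the top intervals of neighbouring classes overlapped in at least 1 library. With the NK cells left out, 8 of 9 agreed between libraries.

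Ccr7 (ENSMUSG00000037944.8, chromosome 11, 99144196 to 99155077 on the minus strand, GRCm38) encodes the receptor for CCL19 and CCL21 that brings naive cells into the node. It was high in B cells, at 948 CPM in WT (interval 916 to 981) and 918 CPM in ATG5 KO (889 to 948). Conventional CD4 T cells stood at 598 and 597 CPM, naive CD8 T cells at 540 and 528 CPM, and regulatory T cells at 473 and 634 CPM. Memory-like CD8 T cells were lower, at 228 and 268 CPM, so that naive exceeded memory-like CD8 T cells 2.37-fold (1.86 to 3.06) in WT and 1.97-fold (1.66 to 2.35) in ATG5 KO. NK cells held 0 UMIs of Ccr7 in WT, where 3 counts in 7 cells, the limit used here for a count of 0, would be a share of 42.9% of cells with a UMI, and 2 UMIs in ATG5 KO. This limit covers counting error in cells with a UMI and says nothing of cells that express a gene below detection. The order B, then CD4 and naive CD8, then memory-like CD8, then NK was thus seen in both libraries, with regulatory T cells below CD4 T cells in WT and above them in ATG5 KO. In WT the intervals of conventional CD4 and naive CD8 T cells overlapped. In ATG5 KO those of regulatory and conventional CD4 T cells overlapped.

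Ccr7 also varied within classes. Conventional CD4 T cells fell into 3 sub-clusters, and the one led by Dusp10 and Ifngr2 beside the CD4 genes held 864 CPM in WT and 1139 CPM in ATG5 KO, against 506 and 429 CPM in the largest one. Among naive CD8 sub-clusters the range in WT was 313 to 709 CPM, and in ATG5 KO 200 to 766 CPM. Both libraries had the highest naive CD8 value in the same sub-cluster. These sub-clusters were defined from gene expression, so the differences are descriptions without a test.

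Cxcr4 (ENSMUSG00000045382.6, chromosome 1, 128588199 to 128592293, minus strand) encodes the receptor for CXCL12, a chemokine of stroma and endothelium. B cells held 1414 CPM in WT (1375 to 1455) and 1216 CPM in ATG5 KO (1182 to 1250). The other 5 classes lay between 359 and 797 CPM in WT and between 316 and 558 CPM in ATG5 KO, so none of these 5 classes reached the B cell level in either library. B cells exceeded conventional CD4 T cells 3.41-fold (3.08 to 3.79) in WT and 2.97-fold (2.76 to 3.20) in ATG5 KO. Memory-like exceeded naive CD8 T cells 1.503-fold (1.27 to 1.77) and 1.75-fold (1.52 to 2.01). Endothelial cells, which are known to use Cxcr4 themselves, held 47.2 CPM in WT and 103 CPM in ATG5 KO.

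Cxcr5 (ENSMUSG00000047880.15, chromosome 9, 44511787 to 44561877, minus strand), the receptor gene for the follicular chemokine CXCL13, was mainly found in B cells. They held 460 CPM in WT (438 to 483) and 484 CPM in ATG5 KO (463 to 507). Conventional CD4 T cells held 7.29 and 8.83 CPM, so that B cells were 63.1-fold (30.6 to 157) and 54.9-fold (34.6 to 92.8) higher. Low levels were found in regulatory T cells, at 31.6 and 33.5 CPM, and in memory-like CD8 T cells, at 43.7 and 61.6 CPM. Memory-like exceeded naive CD8 T cells 3.17-fold (1.47 to 6.68) in WT and 3.36-fold (2.06 to 5.45) in ATG5 KO, from 14 and 34 UMIs in the memory-like cells. A T cell cluster led by Cd4, S100a4 and Maf, which mixed Cd4 and Cd8a cells and was left out of the 6 classes, held 85.8 CPM in WT and 77.5 CPM in ATG5 KO. NK cells held 0 UMIs in both libraries, for which the limit of 3 counts gives shares with a UMI of up to 42.9% of 7 cells and 12.5% of 24 cells.

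Ccr6 (ENSMUSG00000040899.14, chromosome 17, 8236043 to 8257141, plus strand) encodes the receptor for CCL20. B cells held 129 CPM in WT (117 to 141) and 118 CPM in ATG5 KO (108 to 129). In conventional CD4 T cells 0 UMIs were counted in 341 WT cells, for which the limit of 3 counts gives a share with a UMI of up to 0.880%, and 3 UMIs in 679 ATG5 KO cells. B cells were therefore at least 41.2-fold higher in WT, with the CD4 T cells set at 3 counts, and the ratio in ATG5 KO was 80.3 (27.3 to 391). Regulatory T cells stood apart from conventional CD4 T cells, with 11 UMIs (43.4 CPM) in WT and 20 UMIs (44.6 CPM) in ATG5 KO. The T cell cluster led by Cd4, S100a4 and Maf held 16 UMIs (59.7 CPM) in WT and 15 UMIs (43.0 CPM) in ATG5 KO. It lies outside the conventional CD4 T class, so the B to CD4 ratios do not cover its cells. Gamma-delta T cells, a cluster of 23 and 31 cells outside the 6 classes, held 142 and 146 CPM. Their ratio to B cells was 1.105 (0.567 to 1.95) in WT and 1.23 (0.765 to 1.89) in ATG5 KO.

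Ccr9 (ENSMUSG00000029530.16, chromosome 9, 123678439 to 123784330, plus strand) encodes the receptor for CCL25, the chemokine of thymus and small intestine. Naive CD8 T cells held 202 CPM in WT (179 to 227) and 197 CPM in ATG5 KO (179 to 217). Memory-like CD8 T cells held 0 UMIs in both libraries, for which the limit of 3 counts gives shares with a UMI of up to 4.48% of 67 cells and 2.44% of 123 cells. With the memory-like cells set at 3 counts, naive CD8 T cells were at least 21.6-fold higher in WT and at least 36.3-fold higher in ATG5 KO. The level in conventional CD4 T cells was 10.4 and 13.7 CPM, and naive CD8 T cells exceeded them 19.4-fold (10.4 to 40.9) and 14.4-fold (9.79 to 21.9). Ccr9 was higher still in plasmacytoid dendritic cells, at 901 CPM in WT and 684 CPM in ATG5 KO, which was 4.46-fold (3.81 to 5.22) and 3.47-fold (3.01 to 3.997) above naive CD8 T cells. Gamma-delta T cells held 107 CPM in WT and 59.6 CPM in ATG5 KO, from 9 UMIs in each library. In B cells 9 and 10 UMIs were counted among 1332 and 1540 cells.

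Ccr9 and Ccr6 had the narrowest class patterns among the 4 genes with a RefSeq promoter entry, and their promoters are shown for that reason. Each runs from 250 bases before to 50 bases after a start site, on the plus strand of GRCm38.p6, at chr9:123766961-123767260 for Ccr9 and chr17:8235793-8236092 for the upstream start of Ccr6. Capitals mark matches to an E-box (CAGGTG, or CACCTG on the other strand), the element bound by E proteins, and to a RUNX-type motif (TGTGGT, or ACCACA on the other strand).
Ccr9: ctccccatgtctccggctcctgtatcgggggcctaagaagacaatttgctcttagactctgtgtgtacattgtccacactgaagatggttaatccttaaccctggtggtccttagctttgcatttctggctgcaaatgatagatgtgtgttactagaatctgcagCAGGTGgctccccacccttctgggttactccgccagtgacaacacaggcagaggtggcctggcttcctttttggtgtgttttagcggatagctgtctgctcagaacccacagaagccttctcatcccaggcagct
Ccr6: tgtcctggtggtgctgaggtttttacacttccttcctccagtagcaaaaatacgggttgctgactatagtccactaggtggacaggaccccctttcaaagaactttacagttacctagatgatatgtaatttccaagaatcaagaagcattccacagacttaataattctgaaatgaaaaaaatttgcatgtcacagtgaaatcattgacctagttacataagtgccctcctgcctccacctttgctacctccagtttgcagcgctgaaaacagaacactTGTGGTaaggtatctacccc
The Ccr9 window held 1 E-box, 85 bases before the start site, and no RUNX-type match. The Ccr6 window held 1 RUNX-type match, beginning 30 bases after the start site, and no E-box. Of all 32851 mouse promoter windows of this length, 20.2% held the E-box letters and 16.8% the RUNX-type letters, so such matches are common. The windows of Cxcr4 and Itgb7 and the downstream start of Ccr6 held neither. The letters are a description and show no binding.

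Cd69 (ENSMUSG00000030156.5, chromosome 6, 129267325 to 129275436, minus strand) encodes an early activation antigen that retains cells. Memory-like CD8 T cells held 977 CPM in WT (871 to 1091) and 1056 CPM in ATG5 KO (972 to 1145). Naive CD8 T cells held 583 and 559 CPM, and memory-like cells exceeded them 1.67-fold (1.46 to 1.91) and 1.89-fold (1.71 to 2.09). B cells stood at 687 CPM in WT and 686 CPM in ATG5 KO, above conventional CD4 T cells at 498 and 433 CPM. Regulatory T cells held 501 and 489 CPM, with intervals that overlapped those of conventional CD4 T cells in both libraries. NK cells held 32 UMIs in WT and 51 UMIs in ATG5 KO, or 980 and 627 CPM, with intervals of 671 to 1384 and 467 to 824. All 6 classes carried Cd69, between 433 and 1056 CPM, and endothelial cells held 4.81 and 5.93 CPM.

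Itgae (ENSMUSG00000005947.11, chromosome 11, 73090583 to 73147446, plus strand) encodes CD103, the alpha-E chain that pairs with beta-7 and binds E-cadherin. Regulatory T cells held 201 CPM in WT (150 to 264) and 288 CPM in ATG5 KO (240 to 342). Conventional CD4 T cells held 7 and 12 UMIs, or 7.29 and 5.89 CPM, so that regulatory T cells were 27.6-fold (12.5 to 72.1) and 48.9-fold (27.1 to 97.1) higher. Naive CD8 T cells held 139 and 144 CPM, while memory-like CD8 T cells held only 3 UMIs in WT and 2 UMIs in ATG5 KO, a naive to memory-like ratio of 14.9 (5.01 to 72.7) and 39.7 (10.9 to 329). The summed level of Itgae thus separated regulatory from conventional CD4 T cells and naive from memory-like CD8 T cells in both libraries. Of the regulatory T cells, 15 of 69 in WT and 39 of 124 in ATG5 KO had an Itgae UMI. Gamma-delta T cells held 450 and 351 CPM. B cells held 0 UMIs in WT, for which the limit of 3 counts gives a share with a UMI of up to 0.225% of 1332 cells, and 4 UMIs in ATG5 KO.

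Itgb7 (ENSMUSG00000001281.10, chromosome 15, 102215995 to 102231944, minus strand) encodes the beta-7 chain, which pairs with alpha-E or with alpha-4 to bind MADCAM1. In WT the 4 T cell classes lay between 237 and 293 CPM, and in ATG5 KO between 226 and 353 CPM. B cells were lower, at 118 and 128 CPM, and conventional CD4 T cells exceeded them 2.46-fold (2.11 to 2.88) and 2.45-fold (2.18 to 2.75). Memory-like CD8 T cells kept Itgb7, at 237 and 226 CPM, beside the near absence of Itgae UMIs. Gamma-delta T cells held 485 and 530 CPM.

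Itgal (ENSMUSG00000030830.18, chromosome 7, 127296260 to 127335138, plus strand) encodes the alpha-L chain of LFA-1, the integrin of firm adhesion and of T and NK cell contacts. Regulatory T cells held 430 CPM in WT (353 to 519) and 509 CPM in ATG5 KO (445 to 579), above conventional CD4 T cells at 268 and 267 CPM by 1.61-fold (1.27 to 2.02) and 1.90-fold (1.62 to 2.23). Naive CD8 T cells held 274 and 239 CPM and memory-like CD8 T cells 284 and 286 CPM, with overlapping intervals in both libraries. B cells were lowest, at 108 and 102 CPM. NK cells held 14 UMIs (429 CPM, 234 to 720) in WT and 64 UMIs (787 CPM, 606 to 1005) in ATG5 KO.

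The CD4, CD8 and B cell contrasts were counted by a common rule, at least 2-fold in the same direction in each library with at least 50 UMIs over both classes in each. Regulatory against conventional CD4 T cells gave 1 of 6 genes with enough UMIs, Itgae, where 5.2% of all 4328 genes passed either way and 3.26% upward. Memory-like against naive CD8 T cells gave 2 of 7, Ccr9 and Itgae, both lower, where 2.71% of all genes passed either way and 1.41% downward. B against conventional CD4 T cells gave 5 of 7, with Cxcr4, Cxcr5 and Ccr6 higher and Itgb7 and Itgal lower, where 16.4% of all genes passed, 9.91% upward and 6.49% downward. NK against naive CD8 T cells gave 3 of 7, Ccr7, Ccr9 and Itgae, all lower, where 7.95% of all genes passed either way and 3.88% downward. The NK count rests on the 7 WT cells, where Ccr7 and Ccr9 were at 0 UMIs and Itgae at 1 UMI.

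Detection was measured as the share of cells with at least 1 UMI of a gene. Each cell was thinned to 1500 UMIs, since median depth ran from 2680 UMIs in WT B cells to 5024 UMIs in WT memory-like CD8 T cells and 6328 UMIs in WT endothelial cells. Cells under 1500 UMIs were left out, 49 and 54 of the B cells, 11 and 22 of the conventional CD4 T cells, 28 and 24 of the endothelial cells and at most 8 of any other lymphocyte class. Cxcr4 was found in 73.9% of WT and 69.8% of ATG5 KO B cells after thinning (84.8% and 83.0% before), against 4.90% and 10.2% of endothelial cells. Ccr7 was found in 59.9% and 57.9% of B cells (71.6% and 71.5% before), against 0.593% and 1.12% of endothelial cells. Cxcr5 was found in 41.5% and 43.2% of B cells (57.1% and 58.6% before). In conventional CD4 T cells it was found in 0.606% and 0.761%, where endothelial cells gave 0.445% and 0.280%. These low shares rest on few cells and do not show that the CD4 T cells equal the background. By level, the CD4 T cells held 7.29 CPM (7 UMIs) against 3.47 CPM (31 UMIs) in WT endothelial cells. In ATG5 KO the values were 8.83 CPM (18 UMIs) and 2.74 CPM (12 UMIs). Ccr9 was found in 18.6% and 20.3% of naive CD8 T cells (32.7% and 34.5% before), and Itgae in 16.4% and 17.6% (25.7% and 28.3% before). For Ccr9 and Itgae, endothelial cells gave at most 0.280% after thinning.

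**Figure D2:**
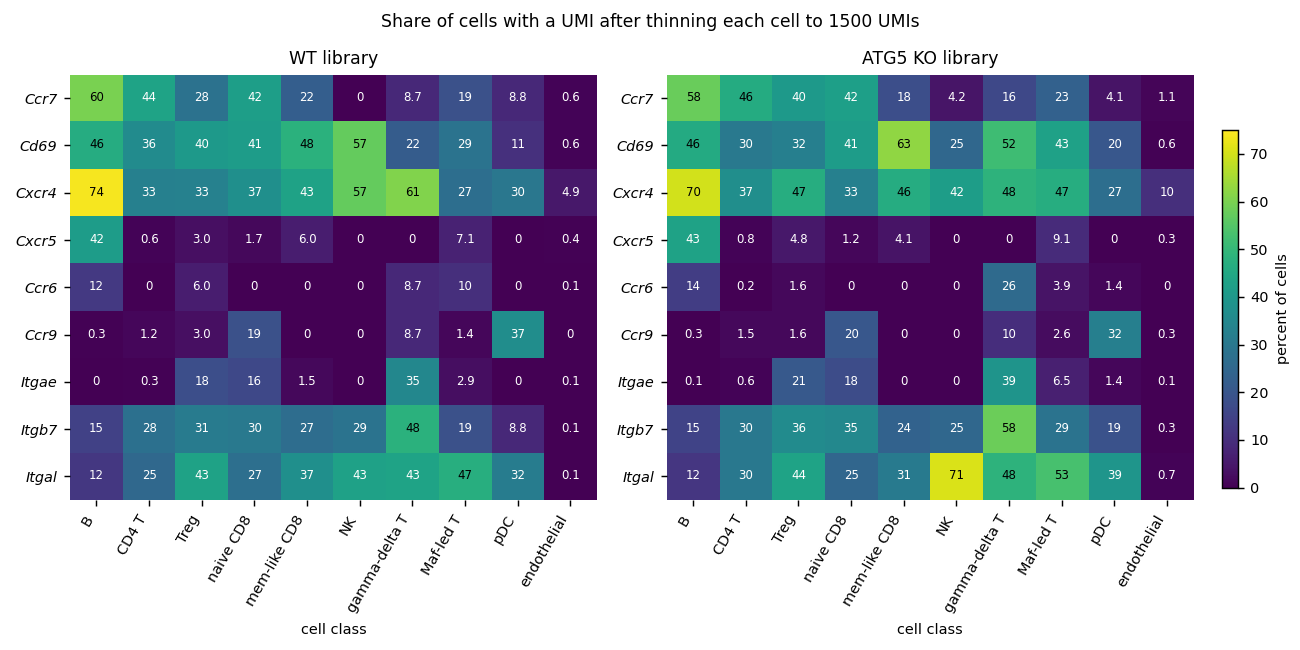
Percent of cells with at least 1 UMI of each gene after thinning every cell to 1500 UMIs, by cell class (columns) in the WT library (left) and the ATG5 KO library (right), with the endothelial cells as background in the last column. Cxcr5 stands at 41.5% and 43.2% in B cells and Ccr9 at 18.6% and 20.3% in naive CD8 T cells, and the NK column of WT rests on 7 cells.

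Within naive CD8 T cells, Itgae UMIs were more frequent in cells that also had Ccr9 UMIs. Of the 135 WT naive CD8 T cells with a Ccr9 UMI, 37.0% also had an Itgae UMI (interval 28.9 to 45.8), against 20.1% (15.6 to 25.3) of the 278 without one. In ATG5 KO these shares were 46.4% (39.4 to 53.4) of 207 cells and 18.8% (15.1 to 23.1) of 393 cells. Median depth differed little, at 3743 and 3571 UMIs in WT and 3950 and 3840 UMIs in ATG5 KO. For Itgae and Itgb7, the chains of 1 integrin, regulatory T cells gave 60% and 50% with Itgb7 among cells with and without Itgae in WT, and 61.5% and 60% in ATG5 KO. This pair of genes was picked for the known partnership, the Ccr9 and Itgae pair after their levels were seen, and cells of a library are not replicates.

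Cd69 and Cxcr4 followed the immediate early genes over B cell sub-clusters. Fos, Jun, Egr1 and 11 other immediate early genes, which cells switch on within minutes of a stimulus or of tissue handling, were summed in each of 8 B sub-clusters per library, from 7865 to 19357 CPM. Over these 16 values Cd69 ranged from 448 to 984 CPM with a Pearson correlation of 0.81, and Cxcr4 from 870 to 1841 CPM with a correlation of 0.67, while Ccr7 gave 0.33 and Cxcr5 0.28. Cxcr4 was highest in the sub-cluster led by the heat shock genes Hspa1a and Hspa1b with Egr1 and Jun, at 1841 CPM in WT and 1482 CPM in ATG5 KO. Cd69 was 984 and 851 CPM in the sub-cluster led by Egr1, Nr4a3 and Fosb. Over 24 values of 12 T and NK sub-clusters the correlations were 0.39 for Cd69, 0.66 for Cxcr4 and -0.39 for Ccr7. The naive CD8 sub-cluster lowest in immediate early genes, at 3226 CPM in WT and 2350 CPM in ATG5 KO, also held the least Cd69 of the naive CD8 sub-clusters, at 297 and 249 CPM. The points share libraries and cells grouped by expression, so these correlations are descriptions without a test, and the part of tissue handling was not tested.

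**Figure D3:**
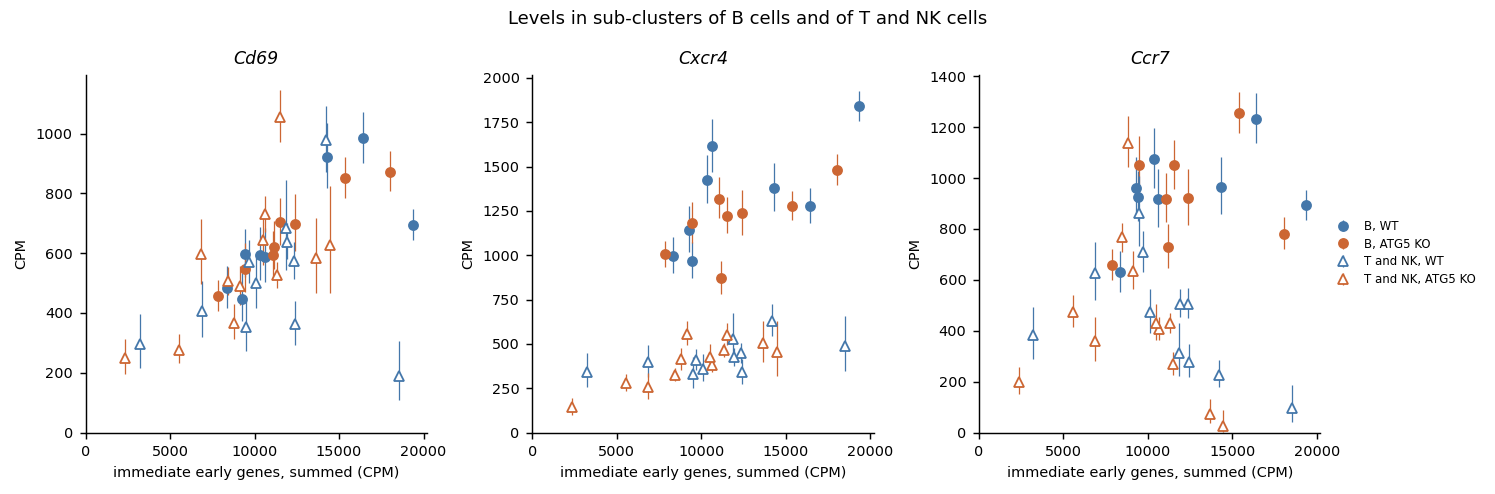
Level of Cd69, Cxcr4 and Ccr7 (CPM) against the summed level of 14 immediate early genes (CPM) in sub-clusters of B cells (filled circles) and of T and NK cells (open triangles) with at least 20 cells, WT in blue and ATG5 KO in orange, with exact 95% Poisson intervals. Cd69 and Cxcr4 stand higher in B sub-clusters with more immediate early RNA, up to 984 and 1841 CPM.

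The genes with the most similar class pattern were ranked by Pearson correlation of log2(CPM + 10) over 12 values, 6 classes in each library, among 6229 genes. For Ccr7 they included Abraxas2 (0.99) and Gm8369, for Cxcr4 Irs2 (0.94), Egr2 and Dusp16, and for Cxcr5 Nlrc4 (0.97), Snx29 and H2-Oa. For Ccr6 they were Swap70 (0.98), Atp6v0a1 and Zfp706, and for Cd69 Ptpn4 (0.91), Chsy1 and Actr1b. For Ccr9 Kcna2 (0.95) stood above Daxx (0.81) and Ifit3 (0.80). For Itgae they included Spcs2 (0.83) and Ankrd55 (0.82), for Itgb7 Kcnn4 (0.96), Rgs10 and Ubash3a, and for Itgal Sh2d2a (0.99), Tbc1d2b and Gata3. The 12 values share libraries and include the few NK cells, and the correlations are descriptions.

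Between the libraries the members with at least 50 UMIs differed by less than 1.5-fold in B, conventional CD4 T and both CD8 T classes, over cells of both sexes. Of 54 values (9 genes in 6 classes), 34 had at least 50 UMIs over both libraries, and 4 of these were past 1.5-fold. No gene was past 1.5-fold in B cells (0 of 7, all genes 6.14%), conventional CD4 T cells (0 of 5, all genes 9.98%), naive CD8 T cells (0 of 8, all genes 8.68%) or memory-like CD8 T cells (0 of 5, all genes 14.4%). The regulatory T cells gave 1 of 6, Cxcr4, which was higher, where 16.9% of all genes passed either way and 10.5% upward. The NK cells gave 3 of 3, 1 higher and 2 lower, where 34.4% of all genes passed, 17.2% in each direction. With TMM or median-of-ratios factors, which were 0.824 and 0.802 in NK cells, both lower calls were lost, and the counts over all classes became 2 higher and 0 lower. The median log2 ratio over the genes with enough UMIs was -0.05 in B cells, 0.00 in conventional CD4 T cells, 0.46 in regulatory T cells, -0.03 in naive CD8 T cells and 0.01 in memory-like CD8 T cells, beside medians of 0.01 to 0.03 over all genes in these classes.

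The B cell ratios, ATG5 KO over WT, were 0.968 for Ccr7 (0.924 to 1.02), 0.999 for Cd69 (0.946 to 1.06), 1.05 for Cxcr5 (0.985 to 1.13) and 0.920 for Ccr6 (0.806 to 1.05). Over cells of both sexes, these intervals exclude a 1.5-fold difference in either direction between these 2 libraries, within counting error. Cxcr4 was lower in ATG5 KO B cells at 0.860 (0.826 to 0.895) and in naive CD8 T cells at 0.753 (0.673 to 0.842), short of 1.5-fold in both. In conventional CD4 T cells Ccr7 gave 0.999 (0.904 to 1.10), Cxcr4 0.987 (0.875 to 1.12) and Cd69 0.870 (0.778 to 0.975). Split by sex, some of these values passed 1.5-fold in female cells. In female naive CD8 T cells, 50 in WT and 162 in ATG5 KO, Cxcr4 gave 0.464 (0.355 to 0.609), against 0.845 (0.700 to 1.02) in male cells. In female conventional CD4 T cells, 39 and 130, Cd69 gave 0.506 (0.389 to 0.663) and Ccr7 1.52 (1.10 to 2.15), against 0.979 (0.814 to 1.18) and 0.846 (0.724 to 0.990) in male cells. In B cells Cxcr4 gave 0.798 (0.724 to 0.880) in female and 0.926 (0.866 to 0.989) in male cells. B cell Cd69 gave 0.801 (0.703 to 0.915) in female and 1.12 (1.02 to 1.23) in male cells. In naive CD8 T cells Cd69 gave 0.718 (0.570 to 0.911) in female and 1.19 (1.04 to 1.37) in male cells. In both classes Cd69 thus lay on opposite sides of 1 in female and male cells. Memory-like CD8 T cells, 36 and 42 male and 11 and 40 female, also held values past 1.5-fold. Their Ccr7 gave 0.630 (0.392 to 1.01) in male and 1.25 (0.725 to 2.29) in female cells. Itgb7 gave 0.873 (0.562 to 1.36) in male and 1.78 (0.824 to 4.38) in female cells, the latter from 8 and 42 UMIs. Cd69 gave 1.46 (1.18 to 1.82) in male and 0.923 (0.699 to 1.23) in female cells. The part of sex was not tested beyond these values. Immediate early genes were lower in ATG5 KO, at 12595 against 13830 CPM in B cells, 9422 against 10728 CPM in conventional CD4 T cells and 8262 against 10248 CPM in naive CD8 T cells. The 13 measured interferon-stimulated genes summed to 462 against 585 CPM in B cells, 831 against 1016 CPM in conventional CD4 T cells and 1205 against 1368 CPM in naive CD8 T cells. Their part in the Cxcr4 and Cd69 values was not tested.

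Cxcr4 in regulatory T cells was 359 CPM in WT (289 to 441, 91 UMIs) and 558 CPM in ATG5 KO (491 to 632, 250 UMIs), a ratio of 1.55 (1.22 to 2.00). The direction was opposite to that in B and naive CD8 T cells. Male cells made up 83.7% of the assigned regulatory T cells in WT and 67.1% in ATG5 KO. Among male cells alone, 36 in WT and 53 in ATG5 KO, the ratio was 1.08 (0.768 to 1.52), and among female cells, 7 and 26, it was 5.01 (1.64 to 24.9) from 3 and 68 UMIs. The log2 ratio was 0.64 over all regulatory T cells, 0.11 in male cells and 2.33 in female cells. All regulatory T cells, 69 in WT and 124 in ATG5 KO, include many without a sex call. Those cells count in the first value only, so the male and female values are not its only parts. Over all cells the log2 ratio was 0.51 with doublets kept, 0.56 at a finer clustering and 0.45 with cells gated on marker UMIs. Each of these is higher in ATG5 KO by less than 1.5-fold. Immediate early genes were lower in ATG5 KO regulatory T cells, at 9141 against 10116 CPM. The 8 B cell markers, which could mark RNA of the Cxcr4-high B cells, summed to 53.6 CPM in ATG5 KO and 31.5 CPM in WT regulatory T cells, against 8909 and 9314 CPM in the B cells themselves. The part of sex, immediate early genes and B cell RNA in the Cxcr4 ratio was not tested beyond these values. The other genes in regulatory T cells gave ratios of 1.34 for Ccr7 (1.08 to 1.67), 1.43 for Itgae (1.03 to 2.02), 1.42 for Itgb7 (1.05 to 1.93), 1.18 for Itgal (0.938 to 1.502) and 0.976 for Cd69 (0.781 to 1.22). In male regulatory T cells alone Itgb7 gave 2.11 (1.35 to 3.37), Itgae 1.69 (1.06 to 2.76) and Ccr7 1.44 (1.08 to 1.94), and Cd69 gave 1.66 (1.21 to 2.30). In the 7 and 26 female cells Itgb7 gave 1.02 (0.469 to 2.54), Itgae 0.605 (0.328 to 1.18) and Cd69 0.408 (0.200 to 0.873), and Ccr7 gave 17.9 (3.13 to 716) from 1 UMI in WT. Cd69 and Itgae thus lay on opposite sides of 1 in the 2 sexes.

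In NK cells Itgal gave a ratio of 1.83 (1.02 to 3.54), Cxcr4 0.571 (0.337 to 0.982) and Cd69 0.639 (0.403 to 1.03). Of the sexed NK cells, 4 of 4 in WT and 7 of 15 in ATG5 KO were male. In male cells alone the Cd69 log2 ratio turned from -0.65 to 0.997. With TMM factors the log2 ratios were -0.37 for Cd69, -0.53 for Cxcr4 and 1.15 for Itgal. With 7 cells in WT these are values of few cells and no more.

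**Figure D4:**
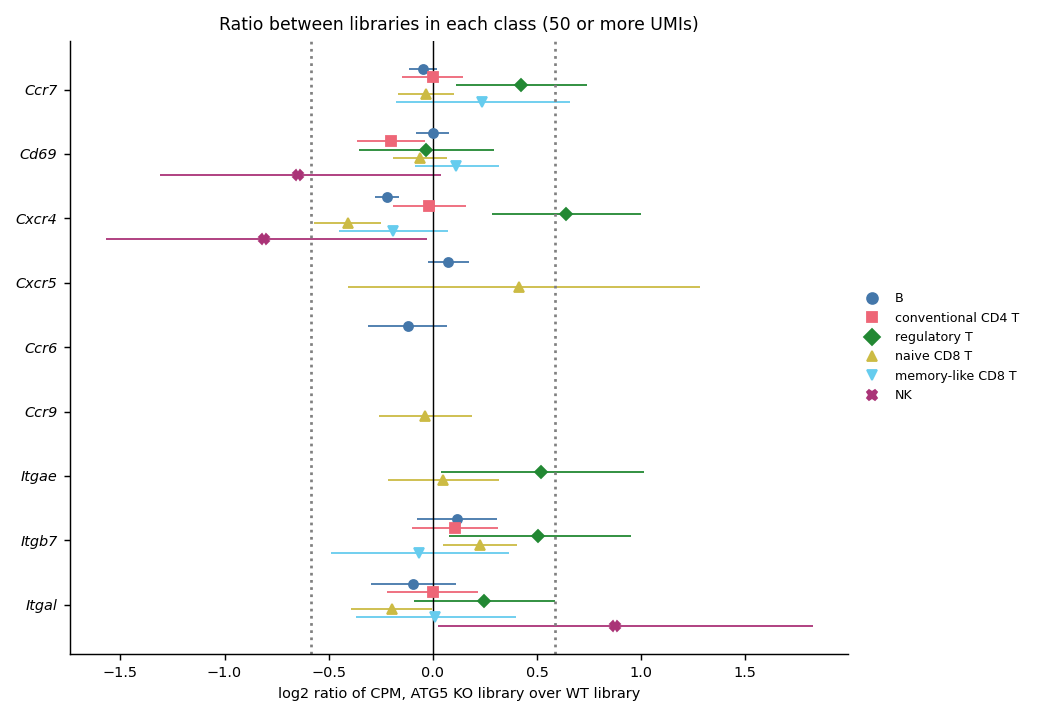
Log2 ratio of CPM, ATG5 KO library over WT library, for each gene in each class with at least 50 UMIs over both libraries, with exact 95% intervals for counting error. Dotted lines stand at 1.5-fold either way, and outside the NK cells only Cxcr4 in regulatory T cells lies past them, at 0.64.

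Of the 43 other trafficking genes, 25 to 29 had enough UMIs in each of the 5 larger classes and 17 in NK cells. In B cells 1 of 28 was past 1.5-fold, the G protein regulator gene Rgs1 at 0.578 (0.467 to 0.714). Conventional CD4 T cells had 0 of 27. Regulatory T cells had 4 of 25, with Gpr183, the receptor gene for oxysterols, at 2.44 (1.32 to 4.86) and the alpha-4 integrin gene Itga4 at 1.91 (1.26 to 2.97), Ccr2 at 1.83 (1.17 to 2.96) and Fermt3, an integrin activator gene, at 0.420 (0.276 to 0.633). Naive CD8 T cells had 2 of 28, Cxcr3 at 3.64 (1.70 to 8.92) and Cd44 at 1.57 (1.114 to 2.26). Ccl5, a marker of the memory-like CD8 T cells, was 35.5 CPM in WT and 93.9 CPM in ATG5 KO naive CD8 T cells, against 3161 and 3536 CPM in the memory-like cells, and its part was not tested. Memory-like CD8 T cells had 3 of 29, among them Rgs1 at 0.505 (0.395 to 0.645) and Rgs2 at 0.590 (0.515 to 0.675). NK cells had 7 of 17, all higher in ATG5 KO, with Itga2 at 4.81 (1.76 to 18.4) the highest and Rgs1 at 1.77 (0.875 to 3.93) and Itga4 at 1.81 (1.15 to 2.99) the lowest. The list's share was 3.57% in B cells, 16.0% in regulatory T cells, 7.14% in naive CD8 T cells and 10.3% in memory-like CD8 T cells, each below the share of all genes in that class given above, and 41.2% in NK cells.

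The ligands were measured in the sorted endothelial cells of the same nodes. Ccl21a, the CCR7 ligand gene, was 114 CPM in WT and 236 CPM in ATG5 KO endothelium, and Cxcl12, the CXCR4 ligand gene, was 292 and 239 CPM. Ccl20, the CCR6 ligand gene, was 96.6 and 33.8 CPM, and Madcam1, which beta-7 integrins bind, was 49.3 and 13.9 CPM. Of the genes for LFA-1 ligands, Icam1 was 279 and 260 CPM (ratio 0.932, 0.868 to 1.0003) and Icam2 was 45.6 and 69.8 CPM (ratio 1.53, 1.32 to 1.78). Vcam1, which alpha-4 integrins bind, was 253 and 133 CPM (ratio 0.525, 0.478 to 0.575). Endothelial subtypes are mixed in these sums, and immediate early genes were 16358 CPM in WT and 8013 CPM in ATG5 KO endothelium, whose part was not tested.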

How the data were processed

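Single-cell 3' RNA libraries of sorted CD45-positive and CD31-positive lymph node cells were analysed, 1 per genotype. Per the file headers, the authors ran the BD Rhapsody WTA Analysis Pipeline 1.11 on an mm10 reference with intronic reads included and deposited whole-number counts of molecules per barcode and gene, without normalization. Counts after the pipeline's recursive substitution error correction were used. The files held 23649554 UMIs in 119938 barcodes (WT) and 23089918 UMIs in 111135 barcodes (ATG5 KO), from 48832612 and 45647078 reads.

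Cells were called from the curvature of the ranked UMI curve between ranks 500 and 60000, giving 4082 barcodes with at least 1235 UMIs and 4387 with at least 1223 UMIs. Cells with under 200 genes or over 25% mitochondrial UMIs were removed, leaving 3886 and 4187. Scrublet called 29 doublets (0.746%) and 30 doublets (0.717%), which were removed. Leiden clusters at resolution 1 (scanpy 1.11.5, from 15 nearest cells in 30 principal components of 2000 genes) were found for all cells and again within B cells and within T and NK cells, and clusters were named from marker lists. Sub-clusters with markers of another lineage above 3 times the median and 250 CPM were left out as mixed (26 and 37 cells).

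UMIs were summed per class and library. CPM have exact Poisson intervals, shares exact Clopper-Pearson intervals and ratios exact conditional binomial intervals, all at 95% and for counting error only. For a share of 0 the printed limit is 3 counts over the cells, which bounds cells with a UMI. Ratio and interval code was checked on simulated counts. With 1 library per genotype no test between genotypes exists, and class differences are descriptions of clusters. All 9 genes are given. Of the other trafficking genes the rule named the 2 highest and 2 lowest ratios past 1.5-fold per class, with at least 50 UMIs over both libraries, and for each gene the 3 most similar genes with at least 50 CPM somewhere. A few genes the rule named are not reported here. The genes, lists and rules were chosen with earlier results of these data known. Alternatives covered the total, error correction, the mitochondrial limit, doublets, clustering, a marker gate, thinning to 1500 UMIs, free RNA, sex, the UMI minimum and scaling by edgeR 4.0.16 (TMM) and DESeq2 1.42.0 (median of ratios) factors. Of the 14 listed interferon genes 13 were measured. Coordinates come from GENCODE vM21 on GRCm38 and promoter sequences from RefSeq (GRCm38.p6), which matched 4 of the 9 genes.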

Additional observations from a re-analysis of the deposited data

Results flagged for a closer look

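Cxcr4 moved in opposite directions between the libraries in different classes. The ratio of ATG5 KO over WT was 1.55 in regulatory T cells, but 0.860 in B cells, 0.753 in naive CD8 T cells and 0.571 in NK cells. Without scaling factors each interval for counting error lay on its own side of 1. Itgal did the same, with 1.83 in NK cells and 0.872 in naive CD8 T cells (0.762 to 0.998). The NK values rest on 7 WT cells, with 26 Cxcr4 and 14 Itgal UMIs. With TMM or median-of-ratios factors, 0.824 and 0.802 in NK cells, Cxcr4 there was under 1.5-fold and its interval reached past 1. Each library is 1 pool of nodes, so the difference between the classes was not tested. In male cells alone Cxcr4 gave 1.08 in regulatory T cells (0.768 to 1.52), 0.926 in B cells (0.866 to 0.989) and 0.845 in naive CD8 T cells (0.700 to 1.02). In female cells alone it gave 5.01 in regulatory T cells (1.64 to 24.9, from 7 WT cells), 0.798 in B cells (0.724 to 0.880) and 0.464 in naive CD8 T cells (0.355 to 0.609).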

How the results depend on the processing

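Of 507 recomputed log2 ratios of the 34 gene and class values, 459 stayed within the counting interval of the reported value, 47 lay outside it and 1 changed sign past a call, Cd69 in NK cells, at 0.997 in male cells against -0.65. Changing the UMI minimum leaves every ratio as it was, so the 34 values under each such setting stayed within by construction. The count of 459 is therefore no measure of stability. In male cells alone 11 of 34 values lay outside, and in female cells 17 of 31. The count of 4 values past 1.5-fold (2 higher, 2 lower) became 2 with doublets kept, 2 with TMM or median-of-ratios factors (2 higher, 0 lower), 7 in female cells, 7 with no minimum of UMIs and 1 with NK cells left out. Those factors shifted the NK cells most, 0.824 and 0.802 for ATG5 KO over WT, and the other classes lay at 0.975 or closer to 1. The 11 class contrasts past 2-fold became 5 in female cells. The 17 other trafficking genes past 1.5-fold became 27 with the marker gate, 11 after thinning, 28 at a minimum of 20 UMIs, 54 with no minimum and 10 with NK cells left out. The causes were not tested, beyond the fewer cells or genes that thinning, sex and the minimum leave. The number of genes with the same top class, 6, ranged from 6 to 8. Leaving NK cells out was chosen after seeing the data. Female cells gave no top class, since no WT NK cell was assigned female. Leaving out a replicate could not be done with 1 library per genotype. No paired analysis was possible because each genotype is 1 library and the labels carry no replicate numbers. Depth limits the NK cells and the genes at 0 to 3 UMIs.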

Other observations

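Outside the 6 classes, Cd69 was 189 CPM (108 to 308, 16 UMIs) in 23 WT gamma-delta T cells and 583 CPM (467 to 718, 88 UMIs) in 31 ATG5 KO cells, a ratio of 3.08 (1.79 to 5.62), while immediate early genes were 18525 and 13656 CPM. In the T cell cluster led by Cd4, S100a4 and Maf, with 70 and 78 cells, Cd69 was 362 CPM in WT and 643 CPM in ATG5 KO (ratio 1.78, 1.39 to 2.28), and Ccr7 was 276 and 430 CPM (ratio 1.56, 1.17 to 2.09). Plasmacytoid dendritic cells, 57 and 78 cells, held Ccr7 at 108 and 24.2 CPM (ratio 0.223, 0.111 to 0.420) and Itgal at 267 and 499 CPM (ratio 1.87, 1.498 to 2.35). In the same cells interferon-stimulated genes were 1075 and 1913 CPM, neutrophil markers 56.6 and 140 CPM and B cell markers 73.1 and 168 CPM, and their part was not tested. Endothelial Cxcr4 was 47.2 CPM in WT and 103 CPM in ATG5 KO (ratio 2.19, 1.91 to 2.502). These values were picked after they were seen, and a spread between animals cannot be estimated for them.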
